A study of Mus musculus with 9 samples.

Results

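Genes of the choroid plexus were followed through hippocampal RNA-seq libraries of mice with the Angelman syndrome mutation. The 10 genes, Ttr, Folr1, Clic6, Kl, Aqp1, Otx2, Sostdc1, Enpp2, Prlr and Slc4a5, were chosen by name from the deposited count table as genes of choroid plexus epithelium, and all 10 were found among its 54532 genes. All 10 also passed the filter on low counts, which left 19782 genes to be tested. The libraries came from 9 N4 Ube3a m-/p+ mice, which carry a maternal Ube3a mutation (B6.129S7-Ube3a tm1alb/J) and were backcrossed onto 129Sv/Ev to make them prone to audiogenic seizures. The mutation is shared by both groups, and no wild-type mouse was sequenced here. The study's methods give a dose of 0.5 nmol for the sequenced mice, and the oligonucleotides were injected into a ventricle (intracerebroventricular, ICV). The 5 Ant-134 mice were given an antimiR, a locked nucleic acid oligonucleotide that blocks miR-134, and the 4 Scr mice were given a scrambled oligonucleotide. Audiogenic seizures were induced in both groups, and the hippocampi were taken after repeated stimuli. In the study's protocol for young mice, injection at P21 was followed by tests at P22, P24 and P26, but older mice were tested too, and the age and test times of the sequenced mice are not stated for them. The Scr mice are described as littermates of the Ant-134 mice, and neither the labels nor the methods give the sex of the sequenced mice. The study asked which hippocampal transcripts differ after Ant-134.

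The choroid plexus is a folded sheet of epithelium that hangs in the brain ventricles and makes cerebrospinal fluid. Its epithelial cells move ions and water out of the blood, secrete the thyroid hormone carrier transthyretin in large amounts, and carry folate into the fluid. In the lateral ventricle it lies along the fimbria of the hippocampus, and it is no part of the hippocampus itself. Its transcripts in a hippocampal library are therefore read beside genes of the tissue that was dissected.

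Libraries held between 28583298 and 41978113 counts on genes. Levels are given as CPM, in which a gene's count is divided by the TMM-normalized size of its library, and 3 counts corresponded to between 0.0709 and 0.107 CPM. Markers of hippocampal principal neurons were present in every library, with a summed level of 8 genes between 907.5 and 1161 CPM. Xist, the transcript of the inactive X chromosome, lay between 541 and 687 CPM in Ant-134 mice 1 and 4 and Scr mouse 3 and between 0.205 and 1.84 CPM in the other 6 mice. Those 3 mice included both libraries with the most choroid plexus transcripts and one of the libraries with the fewest.

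Since Ant-134 blocks miR-134, the miRNA and the stretches of the members that match its seed are shown here. The mature sequence lies at chr12:109734145-109734166 on the plus strand of GRCm38.p6 (RefSeq), with the seed (bases 2 to 8) in capitals.
mmu-miR-134-5p: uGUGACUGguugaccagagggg
The longest 3' UTR of each member (GENCODE M21, GRCm38) was searched on the transcript strand for CAGTCAC or AGTCACA, which overlap in 6 bases. A match was found in 3 of the 10 members, Enpp2, Prlr and Slc4a5, and in 19.5% of the 15278 tested genes that have a 3' UTR. Each of these members had 1 match, shown in capitals at chr15:54839028-54839050 (minus strand), chr15:10331484-10331506 (plus strand) and chr6:83304213-83304235 (plus strand).
Enpp2: ccagtgccCAGTCACcacgtgta
Prlr: ttatataaAGTCACAcaagacca
Slc4a5: aactcttaAGTCACAttaggtca
A match describes the letters only. None of these 3 genes differed between the groups in the tests given below.

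All 10 choroid plexus genes were highest in the same library, that of Ant-134 mouse 1. Scr mouse 3 came next for all 10, followed by Scr mouse 2. The 3 lowest libraries were also the same for every gene, those of Ant-134 mice 4 and 5 and Scr mouse 4. The genes thus rose and fell together from library to library, and each group held libraries from both ends of the range. Ttr and Enpp2 made up most of the summed level of the 10 genes in every library. This sum was 3403 CPM in Ant-134 mouse 1 and between 178.1 and 926.9 CPM in the other Ant-134 mice. It was 2507 CPM in Scr mouse 3, 1364 CPM in Scr mouse 2, 444.7 CPM in Scr mouse 1 and 204.3 CPM in Scr mouse 4. In these bulk samples, fewer cells of a type and less RNA per cell cannot be told apart, and the part of choroid plexus tissue taken along in the dissection was not tested.

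**Figure D1:**
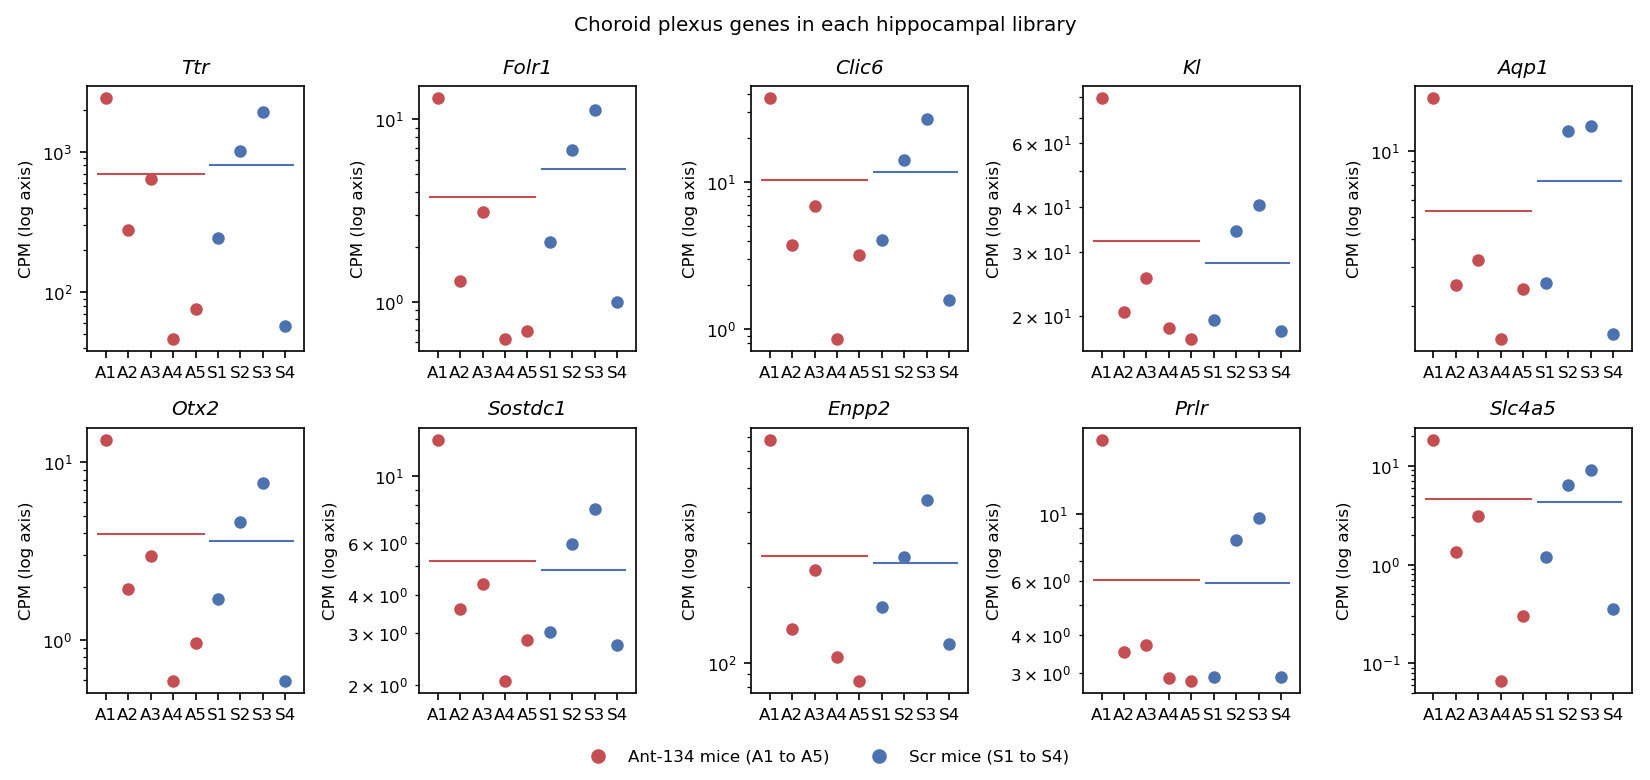
Level of each of the 10 genes in CPM (log axis) in the 5 Ant-134 libraries (A1 to A5, red) and the 4 Scr libraries (S1 to S4, blue); each point is 1 mouse and each line is the mean of a group. A1 is the highest point in all 10 panels and S3 the second highest, and the groups overlap in every panel.

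Ttr, Enpp2 and Sostdc1 encode secreted proteins. Ttr encodes transthyretin, which carries thyroid hormone and retinol-binding protein, and lies on chromosome 18 from 20665250 to 20674324. Its level was 2417, 276, 638, 46.0 and 76.2 CPM in Ant-134 mice 1 to 5. In Scr mice 1 to 4 it was 241, 1006, 1932 and 56.9 CPM. The highest library exceeded the lowest 52.5-fold. Ttr took 0.241% of all counts in Ant-134 mouse 1, where it ranked 14 among the genes by count, and 0.00455% in Ant-134 mouse 4, where it ranked 5083. The group means of Ttr were 691 ± 993 CPM (SD, n = 5) for Ant-134 and 809 ± 854 CPM (SD, n = 4) for Scr, so that the SD exceeded the mean in both groups.

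Enpp2 encodes autotaxin, the secreted enzyme that makes lysophosphatidic acid, and is also a gene of oligodendrocytes. It lies on chromosome 15 from 54838901 to 54952892. Its level was 776, 137, 236, 105 and 84.2 CPM in Ant-134 mice 1 to 5 and 167, 266, 449 and 119 CPM in Scr mice 1 to 4. Ant-134 mouse 1 stood above all other mice, and the remaining Ant-134 and Scr mice covered overlapping ranges. Enpp2 was lowest in Ant-134 mouse 5, and the range from lowest to highest was 9.21-fold.

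Sostdc1 encodes a secreted antagonist of BMP and Wnt signals and lies on chromosome 12 from 36314139 to 36318452. It was at 13.2, 3.61, 4.38, 2.06 and 2.85 CPM in Ant-134 mice 1 to 5 and at 3.01, 5.93, 7.77 and 2.72 CPM in Scr mice 1 to 4. Its range of 6.41-fold was narrower than that of Ttr, and the 9 libraries stood in the same order for both genes.

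Receptors made up the next group of members. Folr1, the folate receptor that carries folate across the epithelium, lies on chromosome 7 from 101858331 to 101870788. Its level was 13.1, 1.30, 3.10, 0.622 and 0.695 CPM in Ant-134 mice 1 to 5 and 2.13, 6.81, 11.3 and 0.996 CPM in Scr mice 1 to 4. Folr1 was read from 429 counts in Ant-134 mouse 1 and from 19 in Ant-134 mouse 4, and the other mice of both groups lay between them. Kl encodes klotho, the coreceptor of fibroblast growth factor 23, and lies on chromosome 5 from 150952607 to 150993817. Its level was 79.5, 20.5, 25.4, 18.5 and 17.3 CPM in Ant-134 mice 1 to 5 and 19.5, 34.2, 40.3 and 18.2 CPM in Scr mice 1 to 4. Kl had the smallest range of the 10 genes, at 4.60-fold, and stayed above 17 CPM in every library. Prlr, the prolactin receptor, lies on chromosome 15 from 10177238 to 10349180. It was at 17.5, 3.51, 3.70, 2.88 and 2.81 CPM in Ant-134 mice 1 to 5 and at 2.91, 8.18, 9.65 and 2.90 CPM in Scr mice 1 to 4. For Prlr the 6 lower libraries lay close together, between 2.81 and 3.70 CPM, and the 3 upper ones between 8.18 and 17.5 CPM.

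Transporters and channels completed the epithelial machinery. Aqp1, the water channel of the apical membrane, lies on chromosome 6 from 55336432 to 55348555. Its level was 17.3, 2.47, 3.20, 1.41 and 2.38 CPM in Ant-134 mice 1 to 5 and 2.54, 12.3, 12.9 and 1.49 CPM in Scr mice 1 to 4. As for Prlr, Ant-134 mouse 1 and Scr mice 2 and 3 were well above the other 6 mice. Clic6, a member of the chloride intracellular channel family, lies on chromosome 16 from 92485736 to 92541243. It was at 37.4, 3.74, 6.90, 0.851 and 3.21 CPM in Ant-134 mice 1 to 5 and at 4.04, 14.2, 27.1 and 1.58 CPM in Scr mice 1 to 4, a range of 44.0-fold. Slc4a5, a sodium bicarbonate cotransporter of the apical membrane, lies on chromosome 6 from 83219828 to 83304945. It was at 18.3, 1.35, 3.13, 0.0655 and 0.298 CPM in Ant-134 mice 1 to 5 and at 1.19, 6.36, 9.18 and 0.351 CPM in Scr mice 1 to 4. Slc4a5 thus came closest to being absent from a library, with 2 counts in Ant-134 mouse 4 against 599 in Ant-134 mouse 1. The ratio of these libraries was 279, with an exact 95% counting interval from 76.8 to 2306 that covers counting error only.

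Otx2 is the transcription factor of the set, a homeodomain protein that choroid plexus epithelium needs during development and keeps in the adult. It lies on chromosome 14 from 48657677 to 48673819. Its level was 13.3, 1.95, 2.95, 0.589 and 0.960 CPM in Ant-134 mice 1 to 5 and 1.69, 4.61, 7.63 and 0.586 CPM in Scr mice 1 to 4. The lowest library was Scr mouse 4, with 20 counts, and Ant-134 mouse 4 lay next to it. Since the members moved together with this factor, their promoter windows (250 bases before to 50 after a start site, RefSeq, GRCm38.p6) were searched on both strands for TAATCC, the core that Otx2-class homeodomains bind. The table held 10 windows of 5 members, Kl, Aqp1, Slc4a5, Otx2 and Prlr. A match was found in 1 of these 10 windows, at one start of Otx2 itself, and in 7.06% of the 32851 windows in the table. The window with the match, chr14:48665060-48665359 on the minus strand, is shown with the letters of the match, read on the opposite strand, in capitals.
Otx2: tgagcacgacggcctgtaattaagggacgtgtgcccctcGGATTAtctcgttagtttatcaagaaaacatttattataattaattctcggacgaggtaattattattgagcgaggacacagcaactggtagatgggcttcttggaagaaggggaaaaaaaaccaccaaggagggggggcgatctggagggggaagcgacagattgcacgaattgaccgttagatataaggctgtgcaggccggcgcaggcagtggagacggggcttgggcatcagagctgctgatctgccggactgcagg
The share of matching windows among the members was near that of all windows. The match is a description of the letters and not a binding site.

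Levels of different genes were compared per length, as the deposited FPKM values. Ttr was the most abundant at a mean of 604 FPKM over the 9 libraries, with a range from 37.3 to 1969 FPKM. Enpp2 followed at a mean of 44.5 FPKM, between 14.5 and 133 FPKM. The means of Kl, Sostdc1, Clic6, Aqp1 and Folr1 were 3.23, 2.82, 2.79, 2.35 and 1.92 FPKM, and the ranges of these 5 genes over the libraries overlapped. Otx2 and Slc4a5 had means of 0.895 and 0.762 FPKM. Prlr was the least abundant at 0.388 FPKM, within the ranges of Otx2 and Slc4a5. The ranges of Ttr and Enpp2 overlapped each other and lay above the highest library of each of the other 8 genes, whose order lies within their spread.

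Some of these rows share exon sequence with other annotated genes. Otx2 shares 154 bases of exon with the antisense gene Otx2os1, which reached at most 21 counts in a library, and 168 bases with Gm49154 on its own strand, which reached at most 1. Enpp2 shares 345 bases with Gm26684 on the other strand, which had between 9 and 70 counts and itself rose with Ttr (log2 change of 0.45 per doubling, adjusted p = 0.0169 in edgeR). Prlr shares 203 bases with Gm21973, which had 0 counts in all libraries. The use of strand in the counting is not given in the sources used here, so reads from these stretches cannot be told apart. Folr1 overlaps Anapc15 without a shared exon base, and Anapc15 stayed between 7.31 and 9.63 CPM.

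Spread between libraries was large for these genes. The SD of log2(CPM + 0.1) over the 9 libraries was 2.29 for Slc4a5, 2.16 for Ttr, 1.78 for Clic6 and 1.61 for Folr1. By this SD, Slc4a5, Ttr and Clic6 ranked 8, 9 and 10 among the 19782 genes tested, and 9 of the 10 members were among the 200 genes that varied most. Kl varied least of them, with an SD of 0.73 and rank 344. The rank is a description and says nothing of the groups.

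Ant-134 and Scr mice were then compared. None of the 10 genes differed between the groups in edgeR's quasi-likelihood test, either at an unadjusted p below 0.05, which 4.18% of the 19782 genes passed, or after Benjamini-Hochberg adjustment over all genes, which 0% passed. DESeq2's Wald test also called 0 of the 10 at the unadjusted threshold, at which it called 1027 of 37435 genes, with 16 genes past adjustment. The groups overlapped for all 10 members, whereas they did not overlap for 1.54% of all genes tested. Log2 fold changes of Ant-134 against Scr were above 0 for 6 members and below 0 for 4, with a median of 0.068, beside 0.0026 over all genes tested.

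Fold changes of single members were small beside their errors. Ttr stood at -0.23 on the log2 scale (standard error 1.39), with a 95% interval from -3.50 to 3.04 and an unadjusted p of 0.874 in edgeR. The change was most negative for Folr1 at -0.50 (standard error 1.09) and for Aqp1 at -0.45 (standard error 0.97), with unadjusted p values of 0.661 and 0.654 in edgeR's quasi-likelihood test. It was most positive for Kl at 0.20 (standard error 0.56), with an unadjusted p value of 0.732 in the same test. Clic6 stood at -0.17, Otx2 at 0.12, Slc4a5 at 0.11, Sostdc1 and Enpp2 at 0.10, and Prlr at 0.04, with p values in edgeR from 0.873 to 0.962. Exact two-sided permutation tests of the mean log2(CPM + 0.1) gave p values from 0.444 for Folr1 to 0.976 for Kl, where 126 divisions of the 9 mice allow a smallest p of 0.00794. The median standard error was 1.02 over the members and 0.101 over all genes tested. These intervals do not show that the groups were alike, since that of Ttr alone spans changes of more than 3 on the log2 scale in either direction.

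The sign of the difference rested on single mice for every member but Aqp1, which stayed below 0 whichever mouse was left out. Without Ant-134 mouse 1, all 10 members had a log2 fold change below 0, from -0.46 for Kl to -1.91 for Folr1, with a median of -1.41 and a smallest unadjusted p of 0.0777 in edgeR. Without Scr mouse 3, 9 of the 10 were above 0, up to 0.78 for Slc4a5, and Aqp1 was at -0.04. Without Scr mouse 1 and without Scr mouse 4, 9 of the 10 were below 0, with medians of -0.19 and -0.25. The ratio of the summed level of the 10 genes, Ant-134 over Scr, was 0.912 with all mice, 0.387 without Ant-134 mouse 1 and 1.53 without Scr mouse 3. With all mice, this ratio was 1.06 when Ttr was left out of the sum and 0.866 when Enpp2 was left out. No member was called at an unadjusted p below 0.05 in edgeR in any of the fits that left out a mouse. With the mean level of 4 Y-linked genes as a covariate, all 10 members were below 0, with a median of -0.39 and a smallest unadjusted p of 0.364 in edgeR.

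**Figure D2:**
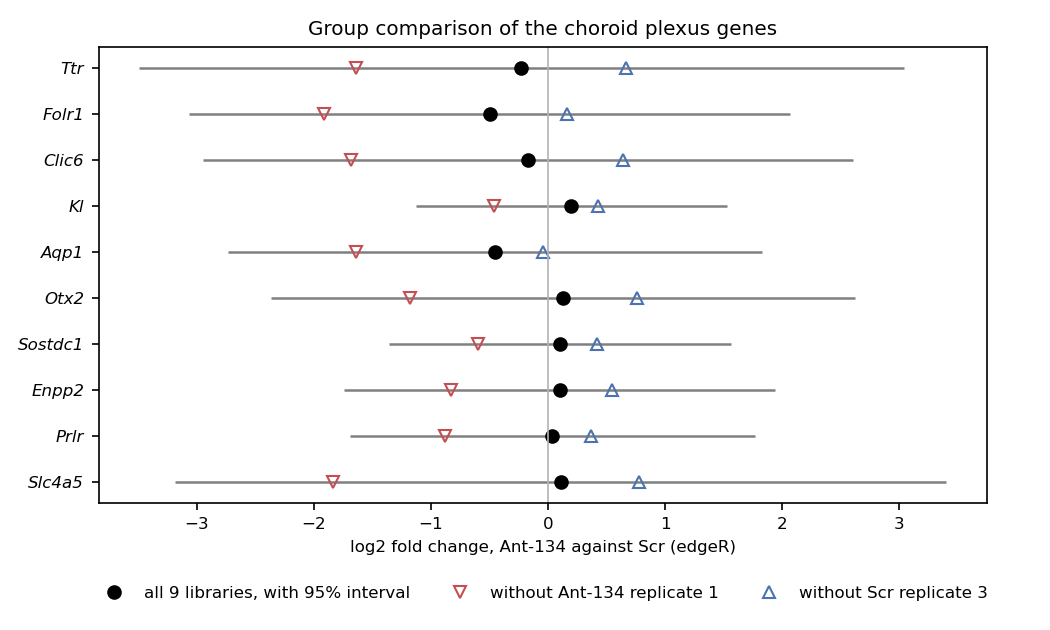
Log2 fold change of each gene, Ant-134 against Scr (edgeR), with all 9 libraries (black, line for the 95% interval), without Ant-134 mouse 1 (red) and without Scr mouse 3 (blue). All 10 intervals cross 0; the red symbols all lie below 0 and the blue ones lie above 0 except that of Aqp1.

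To measure how closely the members moved together, each was compared with Ttr over the 9 libraries. Pearson's r of log2(CPM + 0.1) was highest for Slc4a5 at 0.989 (exact permutation p = 8.3e-06, adjusted over 9 genes 2.5e-05) and Otx2 at 0.986 (exact permutation p = 5.5e-06, adjusted 2.5e-05). Clic6 and Folr1 had r = 0.969 for both, and r was 0.937 for Sostdc1, 0.934 for Enpp2 and 0.928 for Aqp1. It was lowest for Prlr at 0.876 and Kl at 0.873, with adjusted exact permutation p values of 4.1e-04 and 6.0e-05. Spearman's rho lay between 0.933 for Kl and Enpp2 and 1 for Sostdc1, with adjusted exact permutation p values from 5.0e-05 to 7.5e-04. Leaving out Ant-134 mouse 1 and Scr mouse 3, the libraries farthest from the median of Ttr, r was between 0.773 for Prlr and 0.993 for Otx2 over 7 libraries. The sign was positive for all 9 genes within the 5 Ant-134 mice and within the 4 Scr mice. The members were chosen as genes of one epithelium with the order of the libraries already known, so these values describe how tightly they moved.

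**Figure D3:**
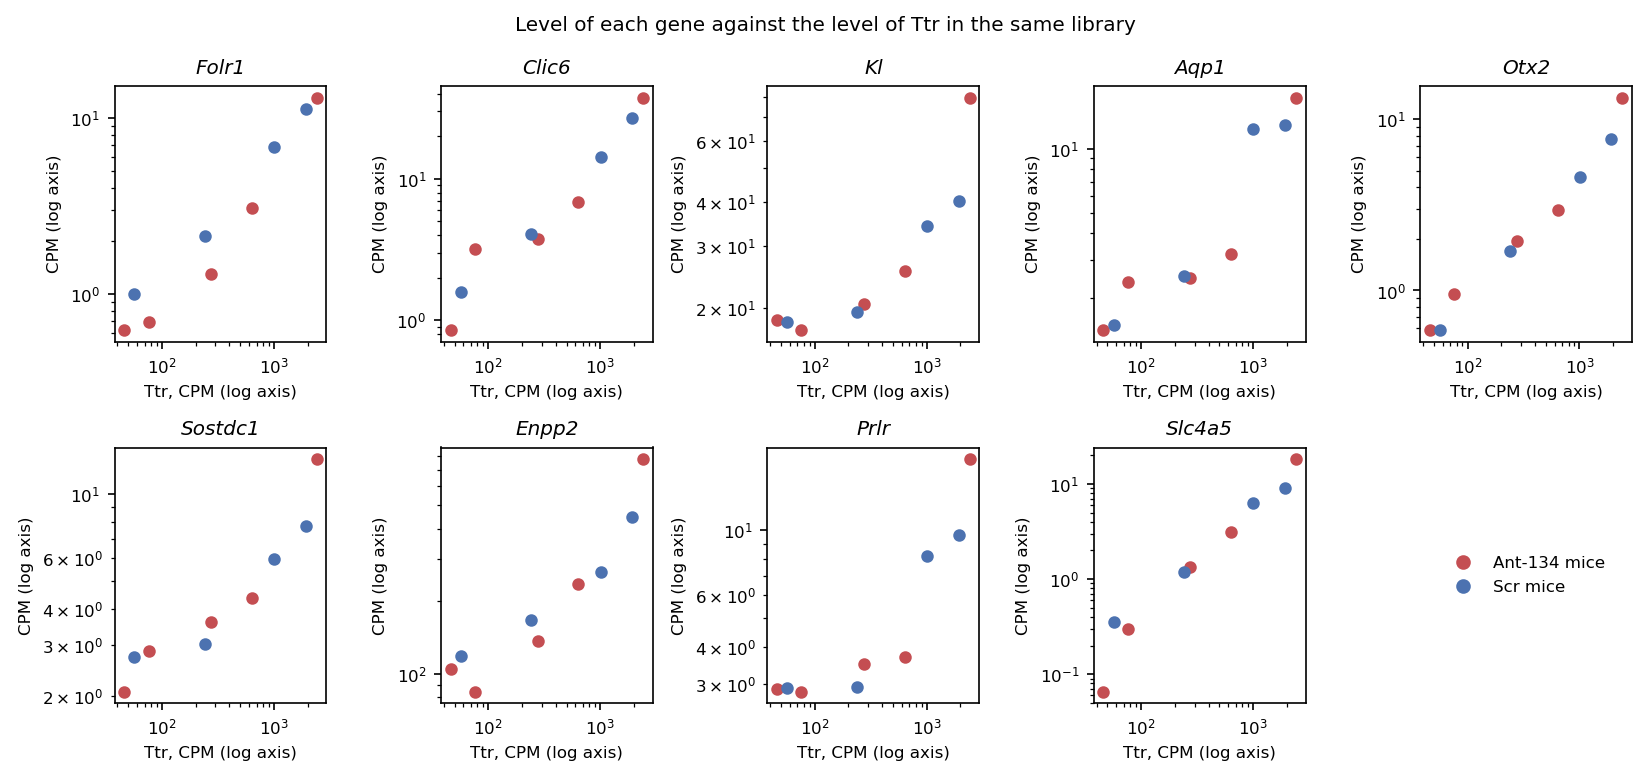
Level of each gene against the level of Ttr in the same library, both in CPM on log axes; red points are Ant-134 mice and blue points are Scr mice. Each panel has its own vertical axis, which spans 279-fold for Slc4a5 and 4.60-fold for Kl between the lowest and highest point, and the points of both groups rise together.

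The steepness of this relation differed among the members. In an edgeR quasi-likelihood fit with the log2(CPM + 0.1) of Ttr beside the group, a slope of 1 means that a gene doubled whenever Ttr doubled. Slc4a5 had a slope of 1.13 with a standard error of 0.05 (adjusted p = 4.0e-08 in edgeR). Slopes were 0.82 for Clic6 (standard error 0.07), 0.77 for Folr1 (0.05), 0.75 for Otx2 (0.04) and 0.63 for Aqp1 (0.08). They were lower for Enpp2 at 0.46 (standard error 0.07), Prlr at 0.43 (0.07), Sostdc1 at 0.39 (0.04) and Kl at 0.32 (0.06). All 9 slopes had an unadjusted p below 0.05, beside 3.47% of the 19781 genes tested without Ttr, the 9 members included, that rose at this threshold. After Benjamini-Hochberg adjustment over all of these genes, 6 of the 9 passed, beside 0.339% that rose and 0.00506% that fell. These shares stand for 68 genes, and their count was 25 without Ant-134 mouse 1, 44 without Scr mouse 3 and 45 without Ant-134 mouse 5. Enpp2, Prlr and Kl did not pass, with adjusted p values of 0.0981, 0.0751 and 0.218 in edgeR. The median slope was 0.63 over the 9 members and -0.0014 over all genes.

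Counts set against those of Ttr in the same library show the same differences. Otx2 had between 3.95 and 12.8 counts for every 1000 of Ttr, Folr1 between 4.71 and 17.5, Clic6 between 10.8 and 42.1 and Slc4a5 between 1.42 and 7.55. These 4 genes kept within a 3.24-fold to 5.31-fold range while Ttr itself moved 52.5-fold. Kl ran from 20.9 in Scr mouse 3 to 402 in Ant-134 mouse 4, a range of 19.3-fold, and Enpp2 from 232 to 2282. For Kl, Prlr, Sostdc1 and Enpp2, and also for Otx2, the ratio was lowest in Scr mouse 3, the library second to Ant-134 mouse 1 in Ttr. On a straight line through the CPM values, the level at which Ttr would be 0 was 14.6 CPM for Kl, 76.7 CPM for Enpp2, 2.16 CPM for Sostdc1 and 1.97 CPM for Prlr. These intercepts were 18.4%, 9.88%, 16.3% and 11.3% of each gene's highest level. Clic6, Otx2 and Folr1 had intercepts of 0.123, 0.307 and 0.408 CPM, at most 3.12% of their highest level. The intercept of Aqp1 was 1.26 CPM, or 7.27% of its highest level, and that of Slc4a5 was -0.487 CPM. Without Ant-134 mouse 1, the intercepts were 17.4 CPM for Kl, 98.4 CPM for Enpp2, 2.50 CPM for Sostdc1, 2.46 CPM for Prlr and 1.24 CPM for Aqp1. They were 0.527 CPM for Clic6, 0.648 CPM for Otx2, 0.310 CPM for Folr1 and 0.062 CPM for Slc4a5. The intercepts of Kl, Enpp2, Sostdc1 and Otx2 then lay above the lowest library of each gene, at 17.3, 84.2, 2.06 and 0.586 CPM. That of Sostdc1 did so with all mice as well. The lines of these genes thus ran above their lowest library, and how well they fit the other low libraries was not tested.

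A list of 22 other genes of choroid plexus epithelium was read in the same fits. In the group comparison 0 of the 22 had an unadjusted p below 0.05 in edgeR in either direction, beside 4.18% of all genes tested. The median log2 fold change of the 22 was -0.20. Against Ttr, 17 of the 22 rose with an adjusted p below 0.05 in edgeR and 0 fell, with a median slope of 0.53. Over all genes tested without Ttr, 0.339% rose and 0.00506% fell at this threshold. Without Ant-134 mouse 1 the count of these 22 genes that passed was 9. Tmem72, a membrane protein of this epithelium, had a slope of 1.14 (standard error 0.03, adjusted p = 1.15e-11 in edgeR), the smallest p after Ttr itself. The pair with the highest mean levels, the monoamine transporter Slc29a4 and the carbonic anhydrase Car12, had slopes of 0.01 and 0.10 and did not pass (adjusted p of 0.968 and 0.870 in edgeR). Slc29a4 ranged from 39.8 to 53.6 CPM and Car12 from 29.0 to 65.1 CPM over the 9 libraries. The summed level of the 22 genes was 380.2 CPM in Ant-134 mouse 1, 292.6 CPM in Scr mouse 3 and between 115.3 and 229.6 CPM in the other 7 mice. Of the 115.3 CPM in Ant-134 mouse 4, the lowest library, Slc29a4 held 45.5 CPM and Car12 42.1 CPM.

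**Figure D4:**
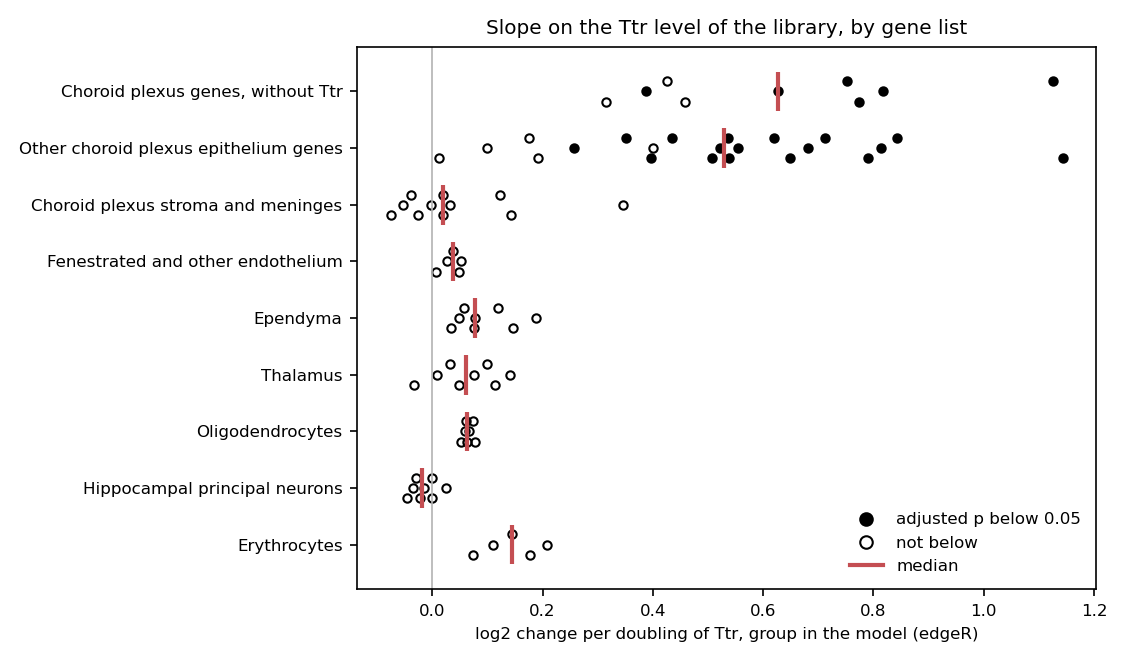
Slope of each gene on the Ttr level of its library (log2 change per doubling of Ttr, edgeR with the group in the model), by gene list; filled points have an adjusted p below 0.05 and red lines are medians. The choroid plexus lists reach slopes above 0.3 for most genes, and no gene of the other 7 lists is filled.

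Markers of the tissues around the choroid plexus were read beside the members. Over all genes tested without Ttr, 3.47% rose with Ttr at an unadjusted p below 0.05 in edgeR and 0.339% after adjustment. Genes of choroid plexus stroma and meninges had a median slope of 0.02 on Ttr, and 0 of 11 passed adjustment in edgeR. At that unadjusted threshold, 3 of these 11 genes rose. Their most abundant genes, Igfbp2 and Dcn, had slopes of 0.12 and -0.03. Ace, the angiotensin-converting enzyme, was the steepest of this list at 0.35 (adjusted p = 0.125 in edgeR). None of the 8 tested ependymal genes passed in edgeR, with 1 of 8 rising at an unadjusted p below 0.05 and slopes of 0.08 for both Foxj1 and Rarres2. The same held for 5 endothelial genes with Slco1c1 and Cldn5 (slopes of 0.04 and 0.05), 8 thalamic genes with Calb2 and Prkcd (-0.03 and 0.03) and 7 oligodendrocyte genes with Mbp (0.06), each list with 1 gene that rose at an unadjusted p below 0.05. It also held for 8 genes of hippocampal principal neurons with Zbtb20 and Neurod6 (-0.02 and -0.00086) and 5 erythrocyte genes with Hbb-bs and Hba-a1 (0.18 and 0.21), each with 0 at that threshold. Mia, from the same list as Foxj1, held at most 5 counts in a library and was not tested.

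**Figure D5:**
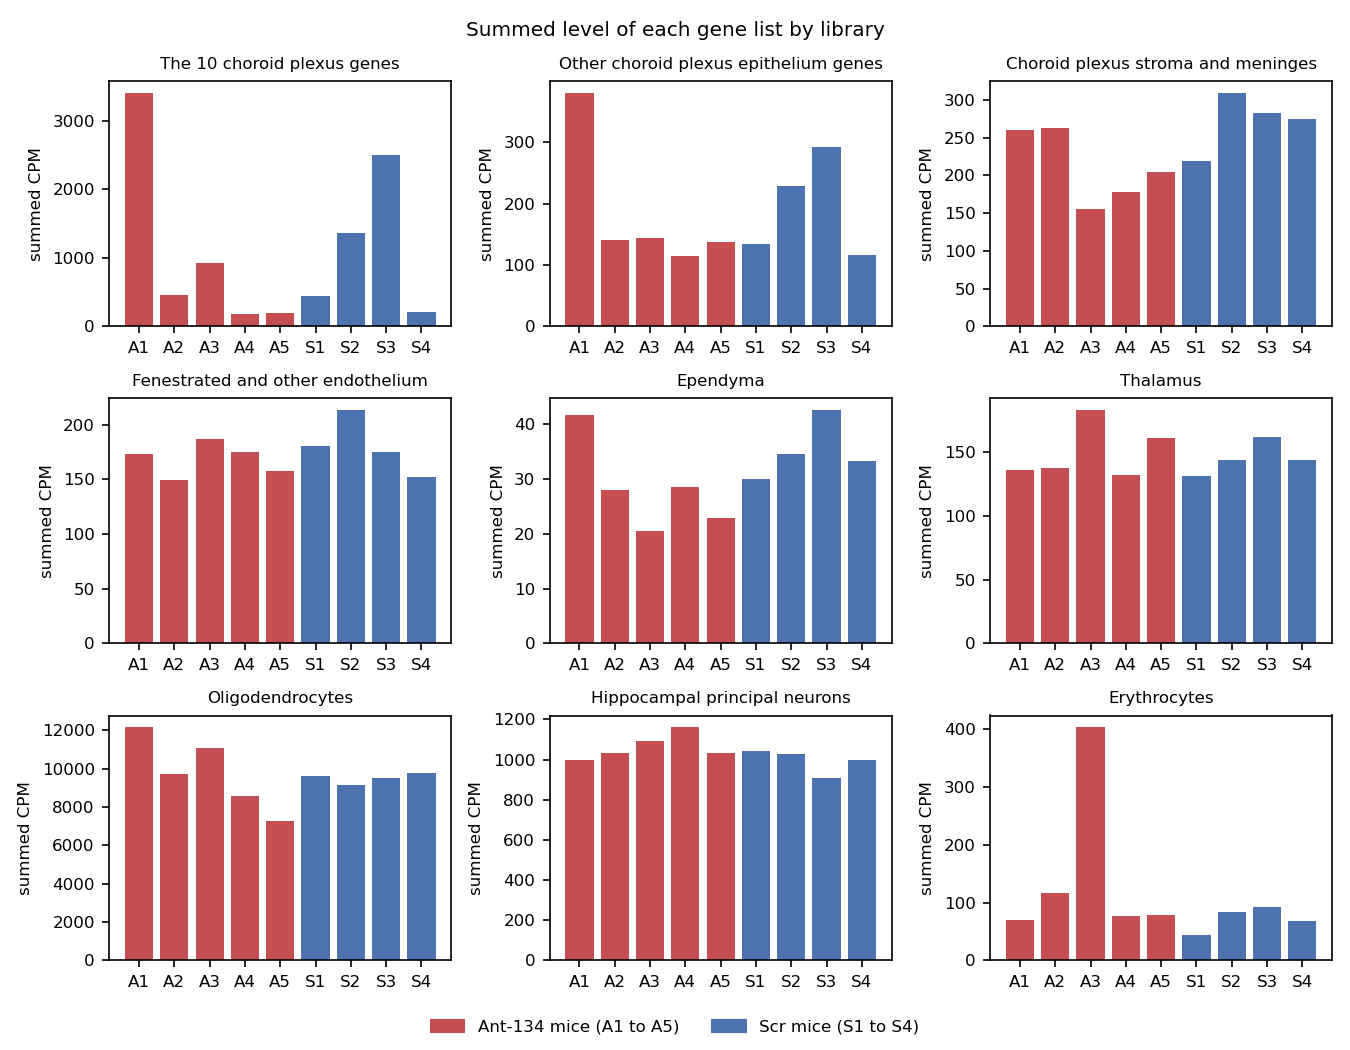
Summed CPM of each gene list by library, on axes that start at 0; A1 to A5 are Ant-134 mice (red) and S1 to S4 are Scr mice (blue). The 10 choroid plexus genes span a 19.1-fold range and the other choroid plexus epithelium genes 3.30-fold, with A1 and S3 highest in both, while hippocampal principal neurons span 1.28-fold. Ttr and Enpp2 make up most of the sum of the 10 genes, and Slc29a4 and Car12 make up much of that of the other epithelium genes in its lowest library.

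In the group comparison, stroma and ependyma held the most genes below an unadjusted p of 0.05 among these lists. Of the 11 genes of stroma and meninges, 6 were lower and 0 higher in Ant-134 mice at an unadjusted p below 0.05 in edgeR, a threshold that 4.18% of all genes tested passed in either direction, and their median log2 fold change was -0.43. Their summed level was between 155.6 and 262.7 CPM in the Ant-134 mice and between 218.8 and 308.8 CPM in the Scr mice. Of the 8 ependymal genes tested, 2, Ccdc153 and Dynlrb2, were lower and 0 higher at an unadjusted p below 0.05 in edgeR, with a median of -0.33 and summed levels from 20.5 to 41.7 CPM in Ant-134 and from 30.1 to 42.6 CPM in Scr mice. In edgeR, 1 endothelial gene was lower (Slco1c1, -0.17) and 1 thalamic gene (Lef1, 0.44) and 1 gene of the principal neurons (Dsp, 0.18) were higher at that threshold, and no oligodendrocyte or erythrocyte gene was below it. The 5 erythrocyte genes were all above 0, with a median of 1.01, and 7 of the 8 principal neuron genes were above 0, with a median of 0.13. None of these genes passed adjustment. The ependymal sum was highest in Scr mouse 3 and Ant-134 mouse 1, the libraries with the most choroid plexus transcripts, and the summed level of the oligodendrocyte genes was highest in Ant-134 mouse 1 at 12170 CPM. The summed erythrocyte level was 403.1 CPM in Ant-134 mouse 3 and between 44.0 and 115.7 CPM in the other 8 mice, and that mouse came next after Scr mouse 2 for all 10 members. The part of these lists in the members' levels was not tested.

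Genes outside the set were ranked by how closely they followed the members. The measure was Pearson's r over the 9 libraries between a gene and the mean of the standardized members, across 19772 tested genes that are no member, and it is given as a description. The 10 closest were Mfrp (r = 0.994), Pcolce2, Col8a1, Cldn2, Col9a3, Cab39l, 1500015O10Rik, Kcne2, Ace and Sulf1. Of these, 7 were also among the 10 closest by Spearman's rho, and 25 genes had r above 0.95. The tight junction gene Cldn2 ran from 0.655 CPM in Ant-134 mouse 4 to 12.6 CPM in Ant-134 mouse 1, and the potassium channel subunit Kcne2 from 0.262 to 10.6 CPM in the same mice. Mfrp ran from 0.426 to 13.8 CPM and 1500015O10Rik from 1.05 to 35.6 CPM, while Col8a1 spanned 14.6-fold. The lowest library of each of these 5 genes held between 8 and 42 counts, beside 19 for Folr1 and 20 for Otx2. Pcolce2, Col9a3 and Cab39l rose over the same libraries within narrower ranges of 2.54-fold, 2.60-fold and 2.12-fold, with slopes of 0.22, 0.22 and 0.18 on Ttr. Ace ran from 9.60 to 47.8 CPM and Sulf1 from 6.61 to 35.9 CPM. In the group comparison, the 10 genes had unadjusted p values from 0.648 to 0.966 in edgeR. Mfrp, Col8a1, Cldn2, 1500015O10Rik and Kcne2 are in the list of other choroid plexus epithelium genes and Ace is in that of the stroma, and the other 4 are in no list used here.

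With the Ttr level of the library in the model, the group comparison was repeated for the remaining 9 members. The log2 fold change of Folr1 was -0.44 beside -0.50 without Ttr in the model, and its unadjusted p of 0.0388 in edgeR was below 0.05, with an adjusted p of 0.999. Clic6 went from -0.17 to 0.0054, Aqp1 from -0.45 to -0.21 and Otx2 from 0.12 to 0.26. The other 8 members had unadjusted p values from 0.146 to 0.986 in edgeR. This model was chosen after the values by library were seen. Over all genes tested, 827 had an unadjusted p below 0.05 without Ttr in the model and 792 with it.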

How the data were processed

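Poly-A RNA of hippocampal samples of 9 mice was sequenced in paired ends by the study. The counts per gene were deposited as made by the authors with featureCounts 1.5.0-p3 from reads aligned with HISAT2 2.0.5 after CASAVA 1.8, as the submitters' processing notes name them, on GRCm38. The annotation and the strand setting are not given in the sources used here. The authors also deposited FPKM values, which scale counts by gene length and library size and were used for levels between genes. The oligonucleotide dose comes from the study's methods.

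Counts were tested in R 4.3.3 with edgeR 4.0.16 (filterByExpr with a minimum count of 10, TMM, robust quasi-likelihood, Benjamini-Hochberg adjustment over all 19782 genes tested), after the scripts were tested on simulated data. Logarithms were taken of CPM + 0.1. Permutation tests were two-sided (scipy 1.17.1). Alternatives were DESeq2 1.42.0, limma 3.58.1 on log2 FPKM, other filters and scalings, a replicate block, a covariate of Y-linked genes and leaving out each mouse. The fits on the Ttr level, the ratios to Ttr and the straight lines were chosen after the values by library were seen. The members, lists and tests were chosen with earlier results of these data known. Named genes were the members, the 10 genes most like them and, of each marker list, the 2 with the highest mean level. A gene that this rule names is not reported here. Others named for their slope or small number (Tmem72, Ace, Ccdc153, Dynlrb2, Lef1, Dsp, Mia and overlapping genes) were chosen after their values were seen. Totals of 28583298 to 41978113 counts set the precision, and counting intervals cover counting error only. Each library was taken as 1 mouse, and no library was a copy of another.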

Additional observations from a re-analysis of the deposited data

Results flagged for a closer look

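The library of Ant-134 mouse 1 stood far from the other 4 Ant-134 libraries for all 10 members on the linear CPM scale, by the gap to its nearest neighbour over the range of the group (Dixon's test). Its level was 2417 CPM for Ttr against 46.0 to 638.4 CPM in the other 4, and 776.1 CPM for Enpp2 against 84.2 to 235.7 CPM. For Kl it was 79.5 CPM against 17.3 to 25.4 CPM, and for Clic6 37.45 CPM against 0.851 to 6.905 CPM. The transporters Slc4a5 and Aqp1 were at 18.25 and 17.31 CPM, and the receptors Prlr and Folr1 at 17.46 and 13.07 CPM. Otx2 was at 13.35 CPM and Sostdc1 at 13.22 CPM. The summed level of the members was 3403 CPM against 178.1 to 926.9 CPM, and that of the other choroid plexus epithelium genes 380.2 CPM against 115.3 to 144.2 CPM. These 12 values come from 1 library and are not separate observations.

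The summed level of 5 erythrocyte genes in Ant-134 mouse 3 was 403.1 CPM, against 69.0 to 115.7 CPM in the other Ant-134 mice. No value stood out in this way among the Scr mice. In all, 13 of the 40 groups of values tested stood out, where chance gives about 1 in 20, or 2, for normally distributed values. The groups share libraries and their genes move together. All of the 13 but the erythrocyte sum come from Ant-134 mouse 1, so the 13 cannot be weighed against the 2. On log2(CPM + 0.1), a scale added after seeing the data, only 3 of the 40 stood out: Kl, Prlr and the sum of the other choroid plexus epithelium genes, all in Ant-134 mouse 1. The gap for Ttr was 0.75 of the range on the linear scale and 0.336 on the log2 scale.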

How the results depend on the processing

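No member passed an unadjusted p of 0.05 in the group comparison under the alternatives run, except Folr1 with Ttr as a covariate (-0.44, with an unadjusted p value of 0.0388 in edgeR), where the count of members was 1 in place of 0. The sign of the log2 fold change did depend on the setting for every member but Aqp1, and the cause was not tested. With the replicate number as a replicate block, Otx2 was at -0.013, Enpp2 at -0.033, Prlr at -0.085 and Slc4a5 at -0.44, with 0 members called. The sources used here do not say that the numbers pair the mice. Correlations of same-numbered mice were -0.119, -0.0707, -0.0256 and 0.0182. With so few mice, these values cannot decide whether mice of the same number shared a litter, batch or day. With a covariate of Y-linked genes, Kl was at -0.041, Otx2 at -0.22, Sostdc1 at -0.086, Enpp2 at -0.19, Prlr at -0.31 and Slc4a5 at -0.51. With Ttr as a covariate, Clic6 was at 0.0054. In limma on log2(FPKM + 1), Otx2 was at -0.034, Sostdc1 at -0.033, Enpp2 at -0.23, Prlr at -0.015 and Slc4a5 at -0.082. On log2(FPKM + 0.1), they were at -0.15, -0.077, -0.24, -0.12 and -0.44. Without both Ant-134 mouse 1 and Scr mouse 3, Kl was at -0.24, Otx2 at -0.54, Sostdc1 at -0.28, Enpp2 at -0.39, Prlr at -0.55 and Slc4a5 at -1.16.

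Leaving out 1 mouse at a time, log2 fold changes ran from -1.64 to 0.67 for Ttr, -1.91 to 0.16 for Folr1, -1.68 to 0.64 for Clic6, -0.46 to 0.42 for Kl, -1.64 to -0.04 for Aqp1, -1.18 to 0.76 for Otx2, -0.60 to 0.42 for Sostdc1, -0.83 to 0.54 for Enpp2, -0.88 to 0.37 for Prlr and -1.84 to 0.78 for Slc4a5. The lowest were without Ant-134 mouse 1 and the highest without Scr mouse 3. Without Scr mouse 1 or Scr mouse 4, 9 of the 10 members were below 0. The median over the members ran from -1.41 to 0.48. Genes associated with Ttr numbered 68 with all mice and 25 to 77 with 1 left out, with 25 without Ant-134 mouse 1, 45 without Ant-134 mouse 5 and 44 without Scr mouse 3. Members among them numbered 5 to 7, and other choroid plexus genes 9 to 17. The correlations with Ttr kept their call on the CPM scale and without the 2 farthest libraries. Slc4a5 has no value where every library must hold 10 counts, since Ant-134 mouse 4 held 2.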
